A study of Mus musculus with 8 samples.

Results

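The 33 genes described here encode scaffold, adaptor and adhesion proteins of synapses. They are the Dlgap, Shank, Homer and Dlg families, Cask, neurabin (Ppp1r9a) and spinophilin (Ppp1r9b), the PDZ adaptors Grip1 and Gipc1, the neurexins Nrxn2 and Nrxn3, the neuroligins, the Lrrtm and latrophilin (Adgrl) families, and the Caspr genes Cntnap1 and Cntnap2. They were chosen by gene symbol, 33 of the 55335 genes in the count table, and all 33 were found. RNA was measured in vagal ganglia, the paired ganglia that hold the cell bodies of vagal sensory neurons, of wild-type (WT) mice. The treated mice received HDM, which commonly stands for house dust mite, and the controls saline. Both groups were sampled 1.5 h after challenge number 4. Each group has 4 libraries, and for each of these 6 to 8 ganglia from 3 to 4 mice were combined. Batch labels 1 to 4 each cover 1 HDM and 1 saline pool. The labels name no strain, age or dose of HDM.

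At a chemical synapse, neurexins on the axon bind neuroligins, Lrrtm proteins and other partners on the receiving cell, while latrophilins, which are adhesion G protein-coupled receptors, bind teneurins and FLRT proteins. Beneath the receiving membrane, Dlg proteins such as PSD-95 (Dlg4) hold receptors and neuroligins, Dlgap proteins link Dlg proteins to Shank proteins, and Shank proteins link on to Homer and to actin. The cell bodies of vagal sensory neurons receive few synapses themselves, and their own synapses lie at the central ends of their axons in the brainstem, so RNA in the ganglion is read at the cell body and far from those contacts. Several of these proteins also work outside synapses: Caspr proteins at nodes of Ranvier, and Gipc1 in the trafficking of receptors.

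Levels are given as CPM, the count scaled to library size, here with TMM factors. The library totals, in mega-counts (M), ranged over 23.95 to 26.67 M for HDM and 26.87 to 31.28 M for saline. Neuron markers stood high in every library, with the summed level of 11 general markers, such as Snap25 and Tubb3, at 9800 to 10496 CPM in HDM and 9499 to 9847 CPM in saline. Markers of sympathetic neurons, which do not belong to these ganglia, summed to 334 to 920 CPM in HDM and 175 to 431 CPM in saline over 8 genes, with the highest sum in HDM 4. Markers of myelinating Schwann cells summed to 3229 to 3551 CPM in HDM and 3427 to 4075 CPM in saline over 12 genes, and Pmp22 and Ugt8a among them fell in HDM. Saline 1 had the highest sum of 5 erythroid markers, at 246 CPM, against 45.6 to 77.7 CPM in the HDM libraries and 73.0 to 76.2 CPM in the other saline libraries. No marker was at 0 in any library.

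Dlgap3, Ppp1r9b, Gipc1 and Nrxn2 were higher in HDM ganglia, by 1.24-fold to 1.31-fold, and no member was lower. They are 1 scaffold, 2 adaptors and 1 adhesion gene of 4 different families, and at the same threshold no other member of those families was called. All 4 are rich in G and C bases, and the fold changes of the 33 genes followed the GC content of their transcripts. The test was edgeR's quasi-likelihood F-test across 17618 genes, and a gene was called at an adjusted p (Benjamini-Hochberg) under 0.05. The 4 calls are 12.1% of the members, against 1.23% of all genes tested that were called higher, and 0 members were called lower, against 0.159% of all genes. The set was assembled with the results of these genes known, so its share of calls is a description only. At an unadjusted p under 0.05 there were 12 members, against 18.1% of all genes. In bulk tissue, more cells of a type and more RNA per cell cannot be told apart.

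Dlgap3 (ENSMUSG00000042388, GRCm38 chromosome 4, 127169204 to 127237022, plus strand) encodes SAPAP3, which joins PSD-95 proteins to Shank proteins. It had 49.6, 52.4, 44.8 and 51.8 CPM in HDM 1 to 4, against 38.5, 38.6, 36.5 and 37.5 CPM in saline 1 to 4. The lowest HDM library stood above the highest saline library, and the saline libraries lay close together. Its log2 fold change of 0.39 (SE 0.055, edgeR adjusted p = 0.0159) is the highest among the 33 genes.

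Ppp1r9b (ENSMUSG00000038976, chromosome 11, 94991035 to 95006899, plus strand) encodes spinophilin, which binds actin filaments and brings protein phosphatase 1 to dendritic spines. Its levels were 198, 207, 182 and 204 CPM in HDM, against 162, 158, 155 and 161 CPM in saline, with no overlap (log2 fold change 0.32, SE 0.047, edgeR adjusted p = 0.0159). Gipc1 (ENSMUSG00000019433, chromosome 8, 83652677 to 83664694, plus strand) encodes an adaptor that ties the tails of membrane receptors to the motor myosin VI. It had 68.2, 67.8, 65.2 and 69.8 CPM in HDM, against 57.5, 54.4, 53.3 and 52.4 CPM in saline, again with no overlap (log2 fold change 0.32, SE 0.045, edgeR adjusted p = 0.0159).

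Nrxn2 (ENSMUSG00000033768, chromosome 19, 6418731 to 6544169, plus strand) encodes neurexin 2, a presynaptic adhesion protein. Its levels were 147, 154, 145 and 144 CPM in HDM, against 114, 122, 113 and 126 CPM in saline, and each HDM library lay above every saline library (log2 fold change 0.31, SE 0.046, edgeR adjusted p = 0.0159). Its exons overlap those of Gm14964 and Slc22a12 on the other strand, and since no source used here says whether counting used the strand, reads of these genes cannot be told apart. The other 3 called genes overlap no exon of another gene.

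**Figure D1:**
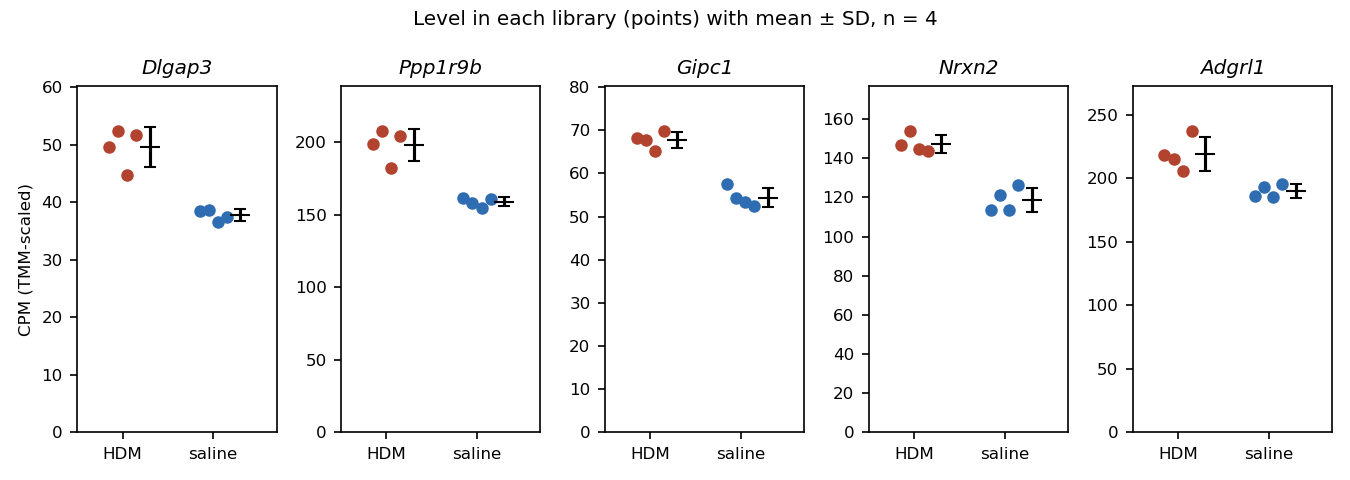
CPM on axes from 0 in the HDM libraries (left, red) and the saline libraries (right, blue) for the 4 called genes and Adgrl1, with points for replicates 1 to 4 and the mean ± SD (n = 4) beside them. In all 5 genes the lowest HDM library stands above the highest saline library.

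Adgrl1 (ENSMUSG00000013033, chromosome 8, 83900105 to 83941954, plus strand), which encodes latrophilin 1, a receptor of the spider toxin alpha-latrotoxin, was not called in the group comparison but was called when the batch label was fitted as a block. It was also called with no filter on low counts, with DESeq2, with the gene length correction, with a robust dispersion and without HDM 3. It had 219, 215, 205 and 237 CPM in HDM and 186, 193, 185 and 195 CPM in saline. The groups did not overlap, and the log2 fold change of 0.21 (SE 0.048) had an edgeR adjusted p of 0.0544 without the block and 0.0211 with it. Among all genes the block gave 3.01% higher and 1.03% lower, and among the members 5 higher, the 4 named above and Adgrl1, and 0 lower. Its exons overlap those of Gm10644, Gm44330 and Gm44450 on the other strand.

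The calls depended on single libraries, over the whole table as among the members. Without HDM 1, HDM 2 or saline 3, 0 members and 0 of all genes were called (edgeR), with 2449, 2452 and 2373 genes at an unadjusted p under 0.05 and 10, 12 and 9 members among them. Without HDM 3 there were 5 members, and 1.61% of all genes, called higher. Leaving out HDM 4, which had the highest sympathetic marker sum, gave 4 called members and 0.330% of all genes higher. Leaving out saline 1, with the highest erythroid marker sum, gave 4 called members and 0.997% of all genes higher. The log2 fold changes themselves moved little over all these fits, within 0.37 to 0.44 for Dlgap3, 0.29 to 0.36 for Ppp1r9b, 0.28 to 0.34 for Gipc1 and 0.29 to 0.35 for Nrxn2. Within batches 1 to 4, the log2 difference of HDM over saline was 0.36, 0.43, 0.29 and 0.46 for Dlgap3, and 0.37, 0.34, 0.35 and 0.19 for Nrxn2. It was 0.29, 0.39, 0.23 and 0.34 for Ppp1r9b and 0.25, 0.32, 0.29 and 0.41 for Gipc1. All of these must be positive, since in each of the 4 genes every HDM library lay above every saline library.

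Across the members, the fold change followed GC content. Of the 14 members with transcripts of at least 55% GC, 14 had a positive log2 fold change and 4 were called, against 6 positive and 0 called of the 19 members below 55%. Over the 33 members, Pearson's r between GC percent and log2 fold change was 0.80 and Spearman's rho 0.80, a description across genes that share the same 8 libraries. The same relation held over the table, with r = 0.29 and rho = 0.41 over 17602 genes, and 76.0% of the 3949 genes at or above 55% GC were positive, against 40.6% of the 13653 below. The calls were split alike, with 4.46% of all genes at or above 55% GC called higher, against 0.293% below. Among the 661 genes of at least 60% GC, the median log2 fold change was 0.17 and 10.3% were called higher. Their median log2 difference by batch was 0.10, 0.099, 0.19 and 0.24. This band also holds Prph, at 60.5% GC, the 1 of the 11 general neuron markers that was called higher (log2 fold change 0.26, edgeR adjusted p = 0.0219). Of those 11 markers, 6 had a positive and 5 a negative log2 fold change, with a median of 0.06.

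The 4 called genes lie in that band, Dlgap3 at 64.5% GC, Nrxn2 and Gipc1 both at 61.4% and Ppp1r9b at 60.2%, and they sat above its median. Shank1, at 62.5% GC, and Shank3, at 62.1%, lie there as well, with log2 fold changes of 0.19 and 0.04 that were not called. When each library was corrected for GC content by a spline, 0 members and 0 of all genes were called (edgeR, 2044 genes at an unadjusted p under 0.05). The log2 fold changes after correction were 0.23 for Dlgap3 (adjusted p = 0.155), 0.19 for Ppp1r9b (0.190), 0.18 for Gipc1 (0.155) and 0.17 for Nrxn2 (0.272). All 4 kept a positive value, and for Adgrl1 it was 0.08 (edgeR adjusted p = 0.525). With the correction and no block, Pearson's r between GC percent and corrected fold change was 0.38 over the 33 members, and Spearman's rho 0.29. With both the block and the correction, 0 members were called, against 0.119% of all genes higher and 0.0568% lower. What part GC content played in the library preparation or in the tissue was not tested.

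**Figure D2:**
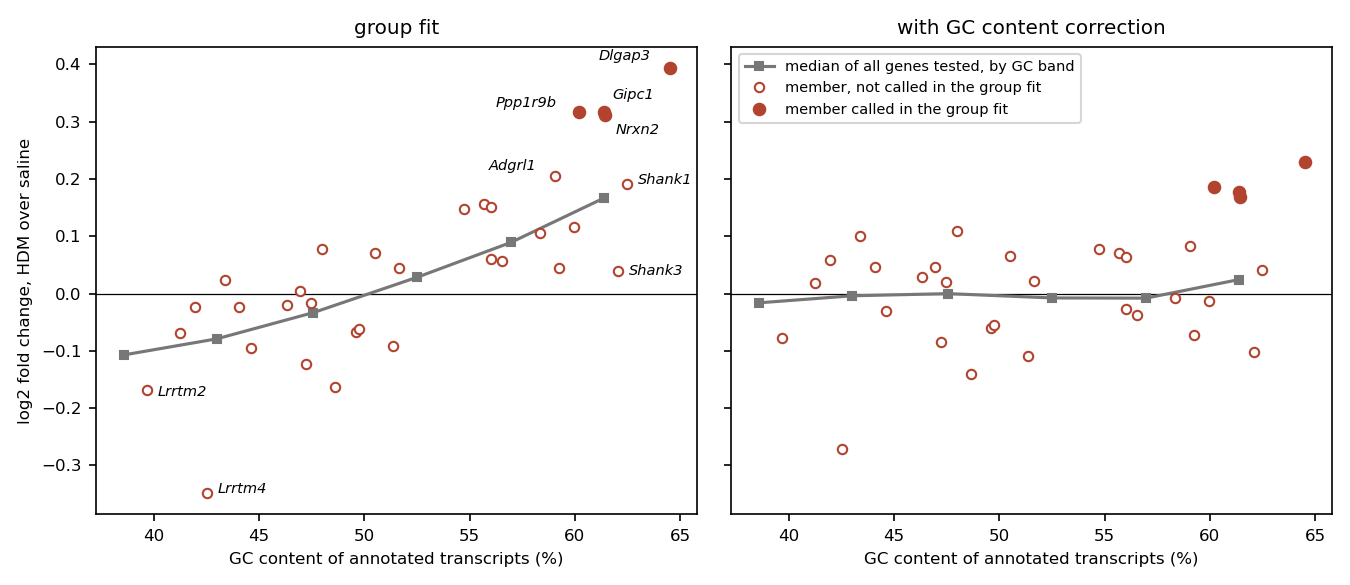
Log2 fold change (HDM over saline) against the GC percent of annotated transcripts for the 33 members, without (left) and with (right) the GC content correction. Filled points are the 4 called members and the grey line joins medians of all genes tested by GC band. On the left the members run along the rising grey line with the 4 called genes above its end, and on the right the line is flat with the 4 still highest.

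The difference in GC content between related members can be read in their coding sequences. The stretches printed here are 60 bases of the best matching coding region of each pair, from the GRCm38 genome with GENCODE M21 exons, 5′ to 3′ on the plus strand, with capitals where the pair differs.
Ppp1r9b, exon 3, chr11:94998053-94998112: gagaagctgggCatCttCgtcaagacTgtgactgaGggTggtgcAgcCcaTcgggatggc
Ppp1r9a, exon 3, chr6:5057517-5057576: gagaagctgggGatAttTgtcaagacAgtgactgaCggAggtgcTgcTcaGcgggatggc
Nrxn2, exon 7, chr19:6472279-6472338: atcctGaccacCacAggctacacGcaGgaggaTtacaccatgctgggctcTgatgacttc
Nrxn3, exon 5, chr12:89193067-89193126: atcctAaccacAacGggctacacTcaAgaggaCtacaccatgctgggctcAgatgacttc
All 9 differing bases of the first pair and all 7 of the second are at the third position of their codon. G or C stands at 5 of the 9 in Ppp1r9b and at 3 in Ppp1r9a, and at 4 of the 7 in Nrxn2 and at 2 in Nrxn3. These stretches were picked as the most alike, and their GC content differs little. It is 60% in Ppp1r9b and 56.7% in Ppp1r9a, and 55% in Nrxn2 and 51.7% in Nrxn3. Over the whole longest coding sequence, G or C fills 76.7% of the third positions in Ppp1r9b and 52.8% in Ppp1r9a, and 77.1% in Nrxn2 and 63.1% in Nrxn3.

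Ratios of related genes within a library, where the library total cancels, set these differences side by side. The ratio of Ppp1r9b to Ppp1r9a counts was 2.36, 2.41, 2.06 and 2.45 in HDM, against 1.83, 1.74, 1.60 and 1.67 in saline. Ppp1r9a, which encodes neurabin, the neuronal relative of spinophilin, had 83.9, 86.0, 88.1 and 83.2 CPM in HDM and 88.1, 90.7, 96.8 and 96.0 CPM in saline. The HDM libraries all lay below the saline libraries, by a narrow margin, and the log2 fold change of -0.12 was not called (edgeR adjusted p = 0.169). The ratio of Nrxn2 to Nrxn3 was 2.50, 2.32, 2.15 and 2.18 in HDM and 1.91, 1.93, 1.57 and 1.66 in saline. Dlgap3 to Dlgap4 gave 0.593, 0.635, 0.509 and 0.546 in HDM and 0.478, 0.467, 0.458 and 0.462 in saline. None of these ratios overlapped between groups, whereas those of Adgrl1 to Adgrl3 (3.13 to 4.04 in HDM and 2.66 to 3.37 in saline) and of Dlg4 to Dlg2 (1.00 to 1.10 in HDM and 0.879 to 1.06 in saline) did. The pairs were chosen after the values were seen and carry no test. The first gene of each pair has the higher GC content, by 12.9 points for Ppp1r9b, 11.8 for Nrxn2 and 6.14 for Dlgap3 over Dlgap4. For the pairs whose ratios overlapped, it is higher by 11.6 points for Adgrl1 and 11.3 for Dlg4.

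**Figure D3:**
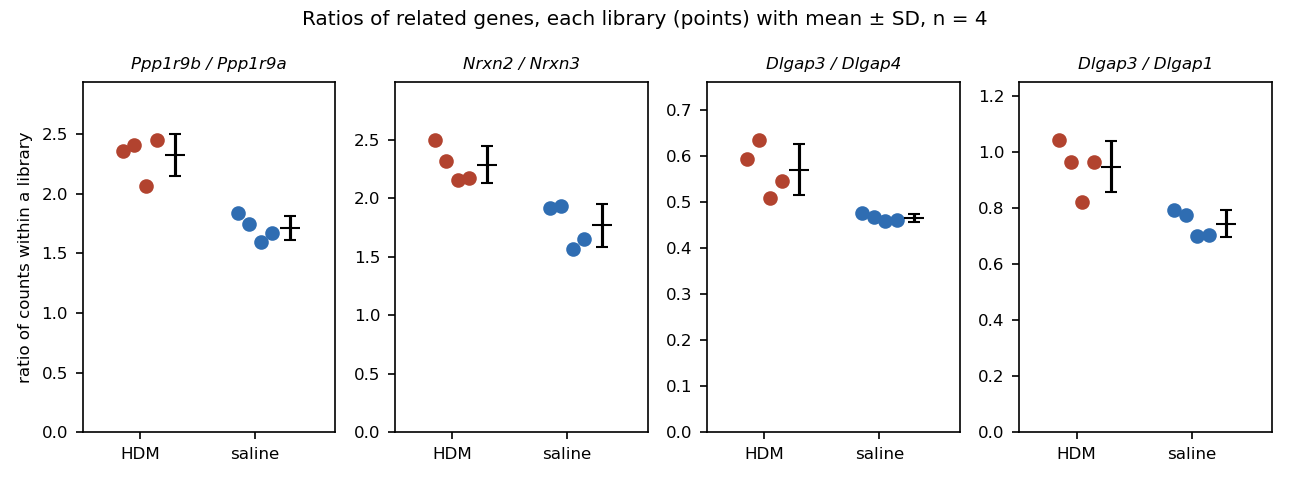
Ratio of counts of 2 related genes within each library, on axes from 0, in HDM (left, red) and saline (right, blue), with the mean ± SD (n = 4) beside the points. For Ppp1r9b over Ppp1r9a the mean is 2.32 in HDM and 1.71 in saline, and for Dlgap3 over Dlgap1 0.948 and 0.744. Only pairs without overlap are drawn, each with a called gene first, so in all 4 panels the HDM points lie above the saline points. The overlapping pairs Adgrl1 to Adgrl3 and Dlg4 to Dlg2 are left out.

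The remaining adhesion genes showed no called change. Nrxn3 ranged over 58.8 to 67.2 CPM in HDM and 59.4 to 76.3 CPM in saline libraries (log2 fold change -0.07, edgeR adjusted p = 0.674). Of the neuroligins, Nlgn2, which serves inhibitory synapses, had 108, 113, 112 and 118 CPM in HDM, against 105, 105, 103 and 103 CPM in saline. Those groups did not overlap, but the log2 fold change of 0.12 was not called (edgeR adjusted p = 0.158) and was -0.01 after the GC correction. Nlgn3 had a log2 fold change of -0.06 and Nlgn1, which serves excitatory synapses, -0.07, with overlapping libraries in both.

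The Lrrtm proteins are postsynaptic partners of neurexins. Lrrtm2 was lower in HDM in 4 of 4 batches, with 43.1, 44.9, 47.5 and 44.6 CPM in HDM and 46.5, 46.8, 55.3 and 53.7 CPM in saline. The groups overlapped, and the log2 fold change of -0.17 had an edgeR adjusted p of 0.181, or 0.0858 with the block. At 39.7% GC it is the member with the lowest GC content, and its exons overlap those of Ctnna1 on the other strand. Lrrtm4 had the lowest log2 fold change of the 33 genes, -0.35 (SE 0.16, edgeR adjusted p = 0.262), at 3.31 to 5.25 CPM in HDM and 4.24 to 6.10 CPM in saline. Lrrtm1 (log2 fold change 0.06) and Lrrtm3 (0.00) lay near 0.

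Of the other latrophilins, Adgrl2 had 33.4, 33.7, 33.6 and 35.5 CPM in HDM and 32.5, 32.0, 32.2 and 32.3 CPM in saline. The groups did not overlap, but the difference was small (log2 fold change 0.08, edgeR adjusted p = 0.407). Adgrl3 overlapped, at 58.6 to 65.5 CPM in HDM and 57.3 to 69.4 CPM in saline. The Caspr genes are better known from myelinated axons, where Caspr (Cntnap1) builds the paranodal junction and Caspr2 (Cntnap2) gathers potassium channels beside it. Cntnap2 had 272 to 297 CPM in HDM and 271 to 320 CPM in saline libraries (log2 fold change -0.02, SE 0.056), and Cntnap1 102 to 115 CPM in HDM and 99.4 to 114 CPM in saline libraries (log2 fold change 0.06, SE 0.054). In both genes the libraries of the groups overlapped.

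Among the scaffolds other than Dlgap3, none was called. Dlgap4 stood at a log2 fold change of 0.11 with an edgeR adjusted p of 0.274, Dlgap1 at 0.05 and Dlgap2 at 0.16, the last at only 1.51 to 2.28 CPM in HDM and 0.773 to 2.12 CPM in saline. Shank1 had 30.9, 33.5, 34.0 and 36.1 CPM in HDM, against 28.8, 30.2, 28.2 and 30.6 CPM in saline. Its lowest HDM library lay just above its highest saline library, and its log2 fold change of 0.19 (edgeR adjusted p = 0.113) became 0.04 after the GC correction. Shank2 had a log2 fold change of 0.15 (SE 0.15) and Shank3 0.04 (SE 0.077), the latter -0.10 after the GC correction.

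PSD-95, the central scaffold of excitatory synapses, is encoded by Dlg4. It was higher in HDM in 4 of 4 batches, with 157, 155, 145 and 170 CPM in HDM and 138, 145, 137 and 147 CPM in saline. The groups overlapped by 1 pair of libraries, and the log2 fold change of 0.15 was not called with or without the block (edgeR adjusted p = 0.0562 and 0.143). Its relatives Dlg1, Dlg2 and Dlg3 had log2 fold changes of -0.09, 0.02 and 0.07. Cask, a scaffold that binds neurexins inside the axon terminal, had 66.1 to 75.8 CPM in HDM and 68.6 to 78.7 CPM in saline. Grip1, which carries AMPA-type glutamate receptors, had 31.9 to 40.5 CPM in HDM and 36.5 to 39.5 CPM in saline.

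Homer proteins bind metabotropic glutamate receptors and Shank proteins, and a short form of Homer1 is a known activity-induced transcript in brain neurons. Gene counts do not separate its forms. Homer1 had 24.9, 24.1, 25.1 and 23.1 CPM in HDM and 24.2, 23.2, 25.9 and 25.5 CPM in saline. The groups overlapped, with a log2 fold change of -0.02 (SE 0.059, edgeR adjusted p = 0.871). Homer2 (log2 fold change -0.16, SE 0.10) and Homer3 (0.05, SE 0.10) also overlapped. Promoter windows of RefSeq (GRCm38.p6, from 250 bases before to 50 after the start) were matched for 24 members, in 45 windows. The core of the cyclic AMP response element, TGACGT on either strand, stood in 1 of the 45 windows, that of Homer1, or 2.22%, against 7.51% of all 32851 windows. That window is shown because it holds this core 3 times, in capitals.
Homer1, plus strand, chr13:93303507-93303806: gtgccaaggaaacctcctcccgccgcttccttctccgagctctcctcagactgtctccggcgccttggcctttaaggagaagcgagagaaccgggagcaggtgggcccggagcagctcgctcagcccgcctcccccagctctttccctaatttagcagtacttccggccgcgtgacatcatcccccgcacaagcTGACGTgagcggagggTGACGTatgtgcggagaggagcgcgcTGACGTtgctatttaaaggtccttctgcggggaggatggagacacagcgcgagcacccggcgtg
The AP-1 motif TGANTCA stood in 2.22% of the members' windows and 7.81% of all windows, and the GC box GGGCGG in 42.2% and 35.7%, each on either strand. None of the 3 motifs contains another, and these matches are descriptions of the windows only.

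**Figure D4:**
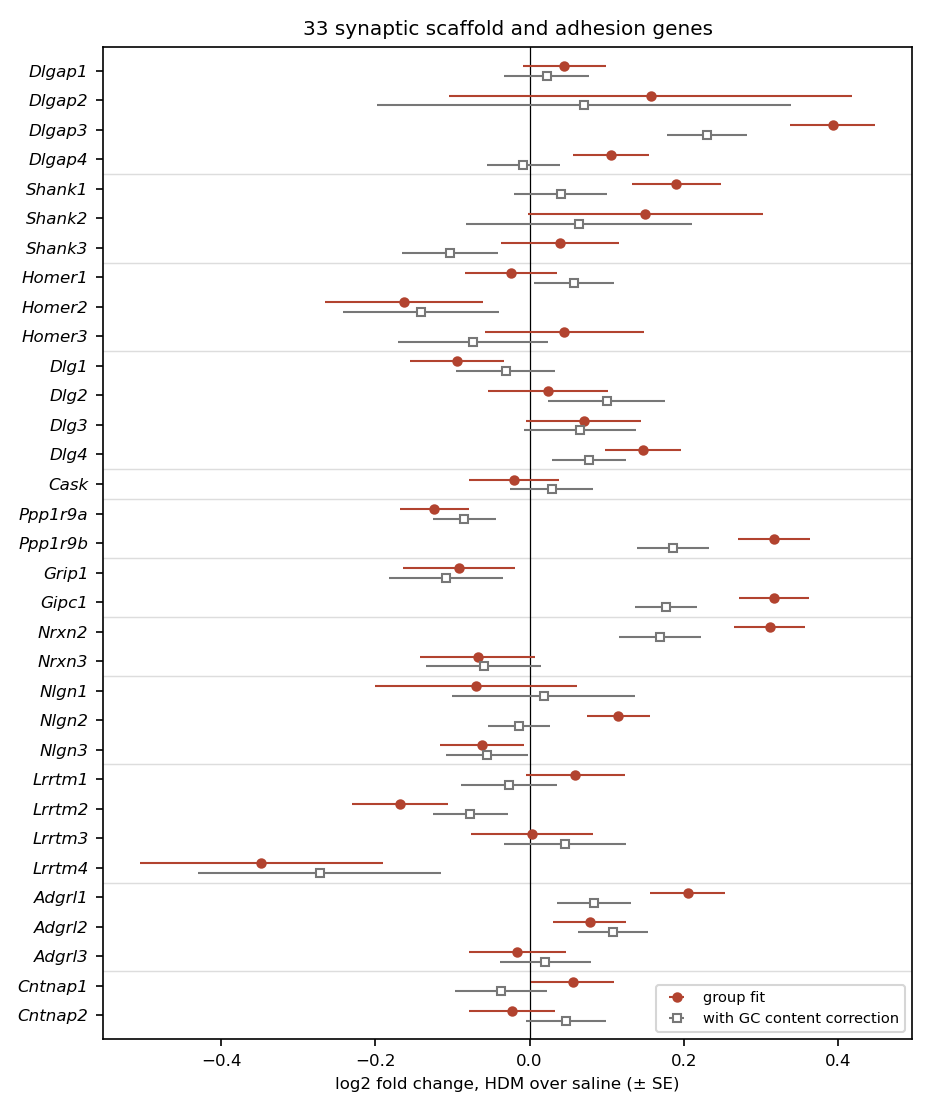
Log2 fold change (HDM over saline) with its SE for each of the 33 members, ordered by family from top to bottom, in the group fit (red circles) and with the GC content correction (grey squares). Dlgap3, Ppp1r9b, Gipc1 and Nrxn2 stand apart on the right, at 0.31 to 0.39 in the group fit and 0.17 to 0.23 with the correction.

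Counted over all 33 genes, 20 had a positive and 13 a negative log2 fold change, with a median of 0.05, against -0.01 over all genes tested. The 4 HDM libraries all stood above the 4 saline libraries in 8 members (Dlgap3, Ppp1r9b, Gipc1, Nrxn2, Adgrl1, Adgrl2, Nlgn2 and Shank1), against 6.25% of all genes, and all below in 1 (Ppp1r9a), against 4.39%. The share all above rose with GC content, to 15.2% of all genes at 55% to 60% GC and 25.9% from 60% GC. All of the 8 but Adgrl2 have at least 55% GC. HDM was higher in 4 of 4 batches in those 8 members and Dlg4, against 15.6% of all genes, and lower in Ppp1r9a and Lrrtm2, against 12.8%. For the 8 and for Ppp1r9a this follows from the lack of overlap, so only Dlg4 and Lrrtm2 are added by it. After the GC correction the median of the members was 0.02, with 19 positive and 14 negative, and of the 14 members with at least 55% GC 8 were positive.

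Scaled to length, with CPM divided by kilobases of exon, the levels of the members spanned from 35.3 for Gipc1 to 0.290 for Dlgap2 (means of the 8 libraries). Gipc1 and Ppp1r9b (35.1) led and did not differ beyond the spread of the libraries. Over the 8 libraries together, Cntnap2 (28.2) reached 31.2 and so overlapped both, whose lowest values were 30.3 and 30.4. Within each single library, Ppp1r9b lay above Cntnap2. The HDM means were 39.2 for Gipc1, 38.9 for Ppp1r9b and 28.0 for Cntnap2, and the saline means 31.5, 31.2 and 28.4. Adgrl1 (23.8) lay above Nlgn2 (18.7) in every library, Nlgn2 overlapped Cntnap1 (18.2), and both lay above Dlg4 (11.3) in every library. Dlgap4 (9.95), Dlgap3 (9.67) and Nrxn2 (9.63 CPM per kilobase) followed without a gap. At the low end, below Homer1 (2.05), stood Shank2 (1.01), Lrrtm4 (0.762), Nlgn1 (0.599) and Dlgap2.

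In some families 1 gene supplied the larger part of the level per length, which is bound to happen where only a pair of genes is compared. Ppp1r9b made up 86.9% of the pair with Ppp1r9a in HDM and 83.0% in saline, Nlgn2 83.1% in HDM and 81.4% in saline of the 3 neuroligins, and Adgrl1 81.1% in HDM and 79.2% in saline of the 3 latrophilins. Nrxn2 held 67.7% in HDM and 61.7% in saline of the level shared with Nrxn3, with libraries at 66.4% to 69.6% in HDM and 59.0% to 63.9% in saline. Dlgap3 and Dlgap4 stood closer, with Dlgap3 at 44.7% in HDM and 39.7% in saline and Dlgap4 at 42.1% in HDM and 45.5% in saline.

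**Figure D5:**
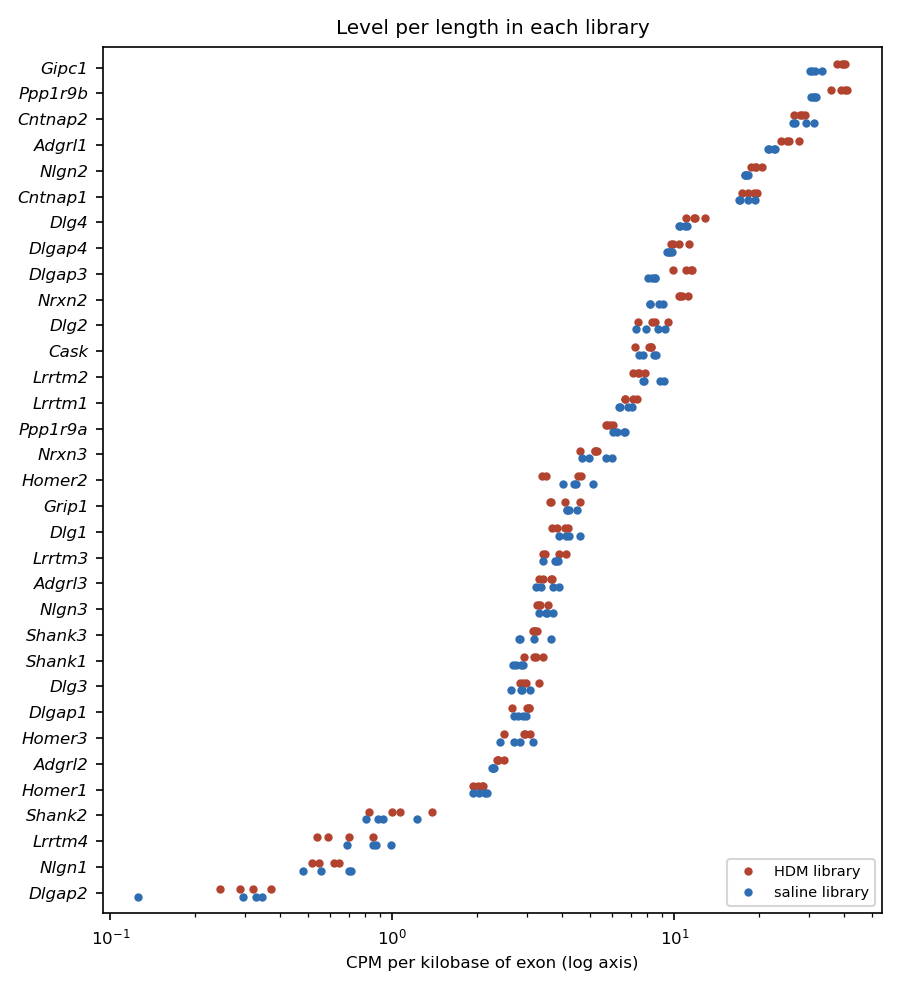
CPM per kilobase of exon on a log axis in each HDM library (red, upper row of points) and each saline library (blue, lower row) for the 33 members, ordered by their mean over the 8 libraries. Gipc1 and Ppp1r9b stand at the top and Dlgap2 at the bottom, with 35.3 and 0.290 CPM per kilobase at the ends.

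Other genes of the same machinery were read from 3 lists. Beside them, 1.23% of all genes tested were called higher and 0.159% lower, and the median log2 fold change was -0.01. Of 44 other postsynaptic density proteins, all tested, 3 were called higher and 0 lower, with a median log2 fold change of 0.11. They are Dynll2, a light chain of dynein and myosin V that binds Dlgap proteins (474 ± 16.2 CPM in HDM and 392 ± 9.18 CPM in saline, SD, n = 4 each, log2 fold change 0.27, edgeR adjusted p = 0.0159), Apba2, which encodes the adaptor Mint2 (0.30, edgeR adjusted p = 0.0244), and Begain, a partner of PSD-95 (0.38, edgeR adjusted p = 0.0468). Of 61 other adhesion and organiser genes, 60 were tested, 3 were called higher and 0 lower, with a median of 0.01. They are Lrfn1 (log2 fold change 0.31, edgeR adjusted p = 0.0219), whose product binds PSD-95, Clstn3 (0.22, edgeR adjusted p = 0.0379), a neurexin partner, and Adgrb1 (0.21, edgeR adjusted p = 0.0470), an adhesion receptor. None of the 6 was called after the GC correction, and the corrected log2 fold change was 0.25 for Dynll2, a gene of 52.0% GC, and 0.05 for Adgrb1, of 63.0% GC.

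Of 11 genes of the node of Ranvier and the paranode, the setting of the Caspr proteins, 0 were called in the group comparison. With the block, Sptbn4, the spectrin of the node, was higher (63.8 ± 4.06 CPM in HDM and 52.2 ± 5.09 CPM in saline, SD, n = 4 each, log2 fold change 0.29, edgeR adjusted p = 0.00952). Kcna2, a potassium channel subunit held by Caspr2 at the juxtaparanode, was lower (432 ± 29.0 CPM in HDM against 494 ± 25.4 CPM in saline, log2 fold change -0.19, edgeR adjusted p = 0.0379). Without the block neither was called even before any GC correction (edgeR adjusted p = 0.0564 for Sptbn4 and 0.0941 for Kcna2). With both the block and the GC correction, 0 of the 11 genes were called. With the GC correction and no block, the log2 fold change was 0.14 for Sptbn4 (edgeR adjusted p = 0.377), at 63.3% GC. For Kcna2 it was -0.15 (edgeR adjusted p = 0.294). The block also brought the called members of the postsynaptic list to 6 and of the adhesion list to 4, all higher. Over all genes tested, the block gave 3.01% higher and 1.03% lower.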

How the data were processed

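The authors deposited raw counts per gene, made with featureCounts on GRCm38 (mm10) per the submitters' processing notes. Per the labels' protocols, RNA was purified on columns, libraries were made with a stranded mRNA kit, and reads were paired and 50 bp long. Aligner, tool versions and use of strand were not given in the sources read here, so counts may be shared with overlapping exons of opposite-strand genes for 15 members, and of same-strand genes for 2. Library totals were 23.95 to 31.28 M counts. Symbols, transcript GC content and overlaps came from GENCODE M21, whose gene span equals that of the file for all 33 members.

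The filter was filterByExpr (edgeR 4.0.16 in R 4.3.3): 17618 genes, all members among them, were tested and 37717 removed. With TMM factors, HDM was compared with saline by edgeR's quasi-likelihood F-test (2-sided, group as the only term), with Benjamini-Hochberg adjustment over all genes tested. Replicates are pools of animals, so p-values measure the spread between pools. The batch label equals the replicate number and pairs the libraries by the labels, while deviations of paired libraries correlated by -0.048 to 0.039 over genes. A fit with the replicate block is given where a call changed.

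The members and all lists were chosen with earlier results of these data known. All members were accounted for, those called in either fit with every library, and up to 3 called genes of each of the 3 other lists were named by smallest p. Members given with every library beyond that rule, and ratios of pairs, were chosen after their values were seen.

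Alternatives were DESeq2 size factors and upper-quartile factors, no filter, at least 1 CPM in 4 libraries, DESeq2 1.42.0, limma-voom (limma 3.58.1), the block, offsets from a per-library natural spline (4 degrees of freedom, genes with mean log2 CPM over 3) on GC content or gene length, the block with the GC offset, a robust dispersion, a threshold of 0.10, and leaving out each library or batch. Scaling to 11 general neuron markers was chosen after seeing the data. Protein sequences were not used here, and 1 marker gene is not reported here.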

Additional observations from a re-analysis of the deposited data

Results flagged for a closer look

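Over the 33 members and both groups, 66 groups of 4 libraries were looked at for a library far from the rest by Dixon's criterion, under which chance marks about 1 in 20 groups. Dlgap1 in HDM 1 had 47.6 CPM, against 53.7 to 54.5 CPM in the other HDM libraries. Cask in HDM 1 had 66.1 CPM, against 74.4 to 75.8 CPM in the others. Nrxn3 in HDM 1 had 58.8 CPM, against 66.2 to 67.2 CPM in the others. Adgrl2 in HDM 4 had 35.5 CPM, against 33.4 to 33.7 CPM in the others. None of these 4 genes was called, and the 5 genes with a call in either fit had no such library.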

How the results depend on the processing

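Leaving out 1 library gave 0 to 5 members called higher, among 0 to 288 of all genes, against 4 members among 216 genes in the main comparison. Leaving out batches 1 to 4 in turn gave 0, 0, 2 and 1 members, among 4, 0, 19 and 4 of all genes. The GC content correction, the block with it and the scaling to neuron markers (chosen after seeing the data) gave 0 each, among 0, 21 and 0 of all genes (4067 at an unadjusted p under 0.05 with the scaling), and under the scaling the 4 had log2 fold changes of 0.24 to 0.32 with an edgeR adjusted p of 0.0502 each. The cause was not tested. The other settings gave 4 or 5 higher, among 143 (upper-quartile factors) to 587 (DESeq2) of all genes. All settings gave 0 members lower, among 0 to 301 of all genes (28 in the main comparison). The 3 other lists held 6 higher calls and 0 lower in the main comparison, and 0 to 8 higher over the leave-outs of a library or batch. Higher calls there were 10 with no filter, 13 with DESeq2, 11 with the block, 0 with the GC correction, 1 with both, 0 with the neuron scaling and 10 at a threshold of 0.10, and lower calls 3 with no filter and 1 each with DESeq2, the block and the threshold of 0.10. Sign changes came in 17 members, none called, the farthest at 0.10 from 0. With the neuron scaling the log2 fold change was -0.0293 for Dlgap1, -0.0397 for Shank3, -0.0325 for Homer3, -0.0504 for Dlg2, -0.00562 for Dlg3, -0.0154 for Lrrtm1, -0.0728 for Lrrtm3 and -0.0177 for Cntnap1. With the GC correction, alone and then with the replicate block, it was -0.00807 and -0.00918 for Dlgap4, -0.103 and -0.0996 for Shank3, 0.0577 and 0.0576 for Homer1, -0.0728 and -0.0738 for Homer3, 0.0289 and 0.0288 for Cask, 0.0183 and 0.0249 for Nlgn1, -0.0137 and -0.0136 for Nlgn2, -0.0270 and -0.0266 for Lrrtm1, 0.0205 and 0.0224 for Adgrl3, -0.0373 and -0.0358 for Cntnap1, and 0.0472 and 0.0482 for Cntnap2. With the gene length correction it was 0.0148 for Homer1, 0.00454 for Cask, -0.0108 for Lrrtm3, 0.0434 for Adgrl3 and 0.00875 for Cntnap2. Lrrtm3 was also at -0.00720 with upper-quartile factors, -0.00967 with no filter, -0.00212 with the CPM filter and -0.000636 with limma-voom. Over the leave-outs, signs changed within -0.0927 to 0.376 for Dlgap2, -0.0185 to 0.286 for Shank2, -0.0160 to 0.124 for Shank3, -0.0558 to 0.0139 for Homer1, -0.0206 to 0.106 for Homer3, -0.0381 to 0.106 for Dlg2, -0.0614 to 0.0217 for Cask, -0.173 to 0.0513 for Nlgn1, -0.0484 to 0.0547 for Lrrtm3, -0.0810 to 0.0331 for Adgrl3 and -0.0689 to 0.0216 for Cntnap2. At these depths Dlgap2, near 2 CPM, is the member with the widest error (SE 0.26).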
